A study of Homo sapiens with 12 samples.

Results

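The genes described are 46 that act in mitosis, when duplicated chromosomes are attached to the spindle and pulled apart. They were chosen by name as rows of the deposited count table, each symbol was present once among its 36502 genes, and all 46 passed the filter on low counts that left 17262 genes to test. By role they comprise 9 regulators of entry into and exit from mitosis, 5 genes of the spindle checkpoint, the 4 genes of the chromosomal passenger complex, 8 centromere and kinetochore genes, 6 kinesins, 6 spindle assembly genes, 2 cytokinesis genes and 6 genes of condensin and chromosome structure.

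The cells were HT1080, a line from a human fibrosarcoma, in the form of 2 engineered clones whose RNA was sequenced. In the GFP clone the m6A-Tracer is a fusion of GFP to a domain that binds DNA bearing adenine methylation, and the VP16 clone carries the same tracer fused to the VP16 activation domain. Cells of both clones hold Dam-LaminB1, an adenine methyltransferase fused to lamin B1 that is stabilised by the ligand Shield1 and marks DNA touching the nuclear lamina. GFP_tracer_Dam and VP16_tracer_Dam cells were kept 3 days in doxycycline, which holds the tracer off, and then 24 h without it but with 500 nM Shield1. GFP_tracer and VP16_tracer cells had the same schedule with no Shield1. GFP_uninduced and VP16_uninduced cells stayed in doxycycline at 50 ng/ml for 4 days. Each of the 6 groups had 2 libraries, named biological replicates by the submitters. The labels do not say whether the cultures were separate, and the p-values below therefore speak of the spread among these libraries, which may be technical. Each tracer was represented by 1 clone, so a difference of clone and a difference of construct cannot be told apart.

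Many mitotic genes are transcribed in a wave late in the cell cycle and are low in resting cells. In a growing culture their summed RNA can follow how many cells are preparing to divide, which was not measured here. Cyclin B with CDK1 drives entry into mitosis, the spindle checkpoint holds cells until every kinetochore is attached, and destruction of cyclin B and securin then lets the chromosomes separate. The promoters of such genes are known for CHR elements, bound by the DREAM and B-MYB-MuvB complexes, and for CCAAT boxes, bound by NF-Y. RNA from whole cultures was measured, so fewer cells in mitosis and less RNA per cell cannot be told apart in any result below.

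The promoters of 6 members are shown, among them SMC2, which was among the members that differed least in the GFP clone. Each is the 250 bases before the annotated start, from RefSeq (GRCh38.p14), on the strand of the gene. Capitals mark TTTGAA or TTTAAA, the core letters of CHR elements, and CCAAT, each searched on both strands.
CCNB1 (chr5:69166900-69167149, plus strand): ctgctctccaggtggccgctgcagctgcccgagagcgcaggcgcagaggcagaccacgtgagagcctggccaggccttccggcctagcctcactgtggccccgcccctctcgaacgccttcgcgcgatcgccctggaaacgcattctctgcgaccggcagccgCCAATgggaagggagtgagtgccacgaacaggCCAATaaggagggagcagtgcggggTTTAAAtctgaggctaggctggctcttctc
CDK1 (chr10:60778081-60778330, plus strand): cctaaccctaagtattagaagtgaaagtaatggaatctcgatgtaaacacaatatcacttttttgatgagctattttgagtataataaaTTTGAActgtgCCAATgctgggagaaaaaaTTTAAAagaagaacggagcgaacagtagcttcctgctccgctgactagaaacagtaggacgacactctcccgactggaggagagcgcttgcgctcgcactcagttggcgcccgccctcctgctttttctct
PLK1 (chr16:23678639-23678888, plus strand): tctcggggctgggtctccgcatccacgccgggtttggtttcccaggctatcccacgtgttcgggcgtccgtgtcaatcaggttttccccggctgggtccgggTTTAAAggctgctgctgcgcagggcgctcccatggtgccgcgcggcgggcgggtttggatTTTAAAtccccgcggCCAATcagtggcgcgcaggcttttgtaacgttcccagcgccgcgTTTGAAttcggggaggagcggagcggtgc
KIF20A (chr5:138178862-138179111, plus strand): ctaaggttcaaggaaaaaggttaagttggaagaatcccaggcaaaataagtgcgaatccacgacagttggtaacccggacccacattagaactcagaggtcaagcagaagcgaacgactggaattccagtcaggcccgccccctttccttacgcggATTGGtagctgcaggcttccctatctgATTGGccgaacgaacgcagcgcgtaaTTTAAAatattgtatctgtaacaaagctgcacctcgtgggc
INCENP (chr11:62123761-62124010, plus strand): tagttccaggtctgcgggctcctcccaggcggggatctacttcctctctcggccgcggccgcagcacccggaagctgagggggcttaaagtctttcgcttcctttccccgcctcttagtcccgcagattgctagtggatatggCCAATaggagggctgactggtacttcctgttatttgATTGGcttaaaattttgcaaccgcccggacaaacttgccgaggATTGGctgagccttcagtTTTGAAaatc
SMC2 (chr9:104094059-104094308, plus strand): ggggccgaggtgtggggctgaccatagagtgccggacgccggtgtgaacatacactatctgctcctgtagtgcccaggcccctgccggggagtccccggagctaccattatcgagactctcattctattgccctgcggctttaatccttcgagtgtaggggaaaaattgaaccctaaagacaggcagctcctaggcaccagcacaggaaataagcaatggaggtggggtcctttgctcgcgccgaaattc

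In these windows CCNB1 held 1 CHR core and 2 CCAAT boxes, CDK1 held 2 CHR cores around 1 CCAAT box, and PLK1 held 3 CHR cores and 1 CCAAT box. KIF20A held 2 CCAAT boxes on the reverse strand (ATTGG as printed) upstream of 1 CHR core, and INCENP 3 CCAAT boxes and 1 CHR core. SMC2 held neither motif in these letters before its start, though the full window, which runs past the start, held 1 CHR core. Over the full windows of the table, from 250 bases before to 50 after the start, 40 of the 46 members were matched; BUB3, TTK, AURKA, TPX2, BIRC5 and UBE2C were not. A CHR core was present in 36 of the 40 (90%) and in 24% of all 35116 promoters of the table. A CCAAT box was present in 29 (72.5%) and in 34.6% of all promoters, and both motifs in 27 (67.5%) and in 9.27%. CDC25C and CENPI held neither motif in the full window. Whether the motifs bear on the levels of the members was not tested. Neither motif contains the letters of the other. A match describes the letters and not a bound site.

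Total counts ran from 18774905 to 24827396 per library. The titles reuse 6 index sequences in 2 series of 6 libraries, 1 of each group, here called index sets 1 and 2, and each pair of values below gives index set 1 first. Within an index set, libraries shared their deviations from the group means, with correlations across genes of 0.41 to 0.86 over the 15 pairs of groups. The GFP_tracer_Dam and GFP_tracer libraries of index set 1 stood apart from the other 10, at -87 and -78.2 on the first principal component (45.4% of the variance) against -16.2 to 41. In these 2 libraries 8 stress genes summed to 2040 to 2070 CPM (counts scaled to a common library size with TMM factors), against 454 to 761 in the other 10, and DDIT3, a stress-induced transcription factor, stood at 77.4 and 93.6 CPM against 4.74 to 8.12. The mesenchymal genes VIM, FN1, COL6A3 and SPARC were high in every library while COL1A2, COL3A1 and THY1 were under 1 CPM, KRT8 and KRT18 gave nearly all of an epithelial sum of 156 to 329 CPM, and markers of blood, endothelial and neural cells summed to at most 2.8 CPM. Each comparison that takes in the 2 libraries set apart is given with and without them for the members as a set. Medians by role and most values of single genes are not.

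The 46 members were lowest, as a group, in the 2 libraries set apart. Their summed level was 3139 and 9522 CPM in GFP_tracer_Dam, 3869 and 9458 CPM in GFP_tracer, and 7351 and 8796 CPM in GFP_uninduced. In the VP16 clone it was 6390 and 8897 CPM in VP16_tracer_Dam, 6857 and 8715 CPM in VP16_tracer, and 7494 and 9051 CPM in VP16_uninduced. They took between 0.32% and 0.952% of the counted reads of a library. In every group the library of index set 1 held the lower sum.

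**Figure D1:**
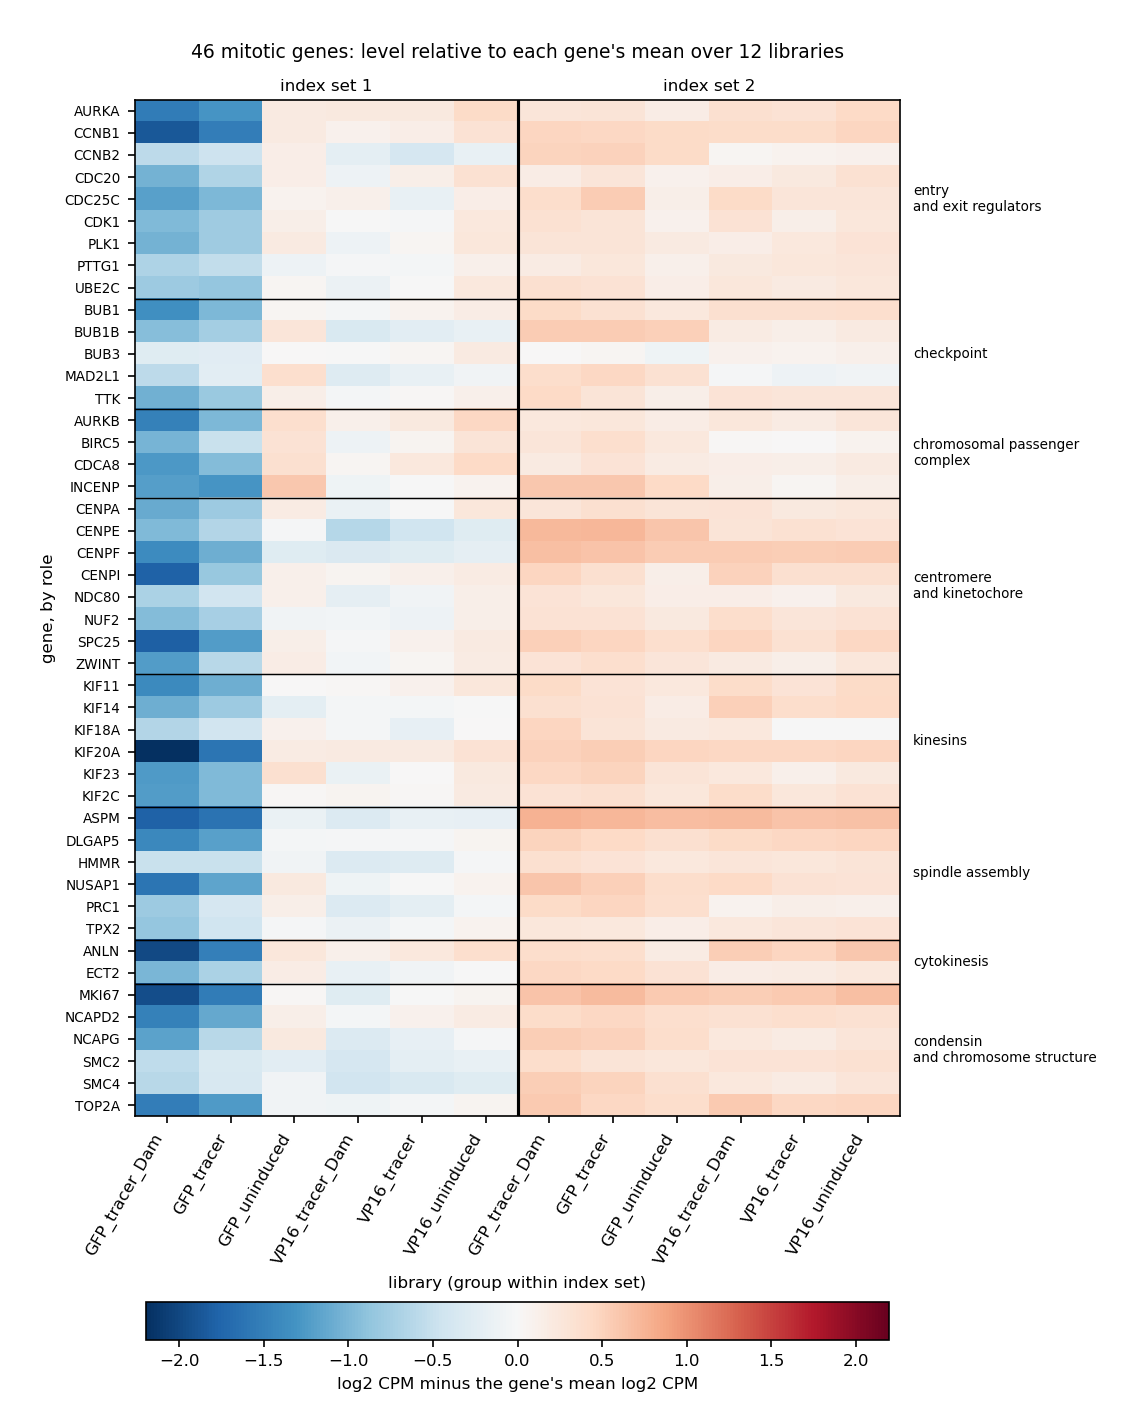
Level of the 46 members (rows, by role) in the 12 libraries (columns, index set 1 left and index set 2 right), as log2 CPM minus the mean of the gene over 12 libraries. The GFP_tracer_Dam and GFP_tracer libraries of index set 1 are blue over nearly the whole column (sums of 3139 and 3869 CPM), while BUB3, HMMR, SMC2 and SMC4 are paler there, and index set 1 is paler than index set 2 in the other groups.

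Removal of doxycycline turned the tracer on, and in the GFP clone the difference had opposite signs in the 2 index sets. Tracer expression and 24 h without the drug cannot be told apart in this comparison. In index set 1 all 46 members were lower in GFP_tracer than in GFP_uninduced, by a median log2 difference of -0.94, from -1.89 for INCENP to -0.11 for SMC2. In index set 2 all 46 were higher, by a median of 0.11, from 0.03 to 0.44. All genes tested had a median of 0.02 in index set 1, and of 0 in the other. Over both sets the edgeR quasi-likelihood test gave a median log2 difference of -0.27 with a median SE of 0.50, and called 0 members with an adjusted p under 0.05, against 0% of the 17262 genes tested. At an unadjusted p under 0.05 it held 0 members and 125 genes, and DESeq2 and limma-voom also called 0 genes. The 2 GFP_tracer libraries differed from each other by a median of -1.17 (index set 1 minus index set 2), more than the groups did. Without the 2 libraries set apart the median turned to 0.21, or 0.075 with the index set as a block, with 45 of 46 members positive and again 0 called.

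**Figure D2:**
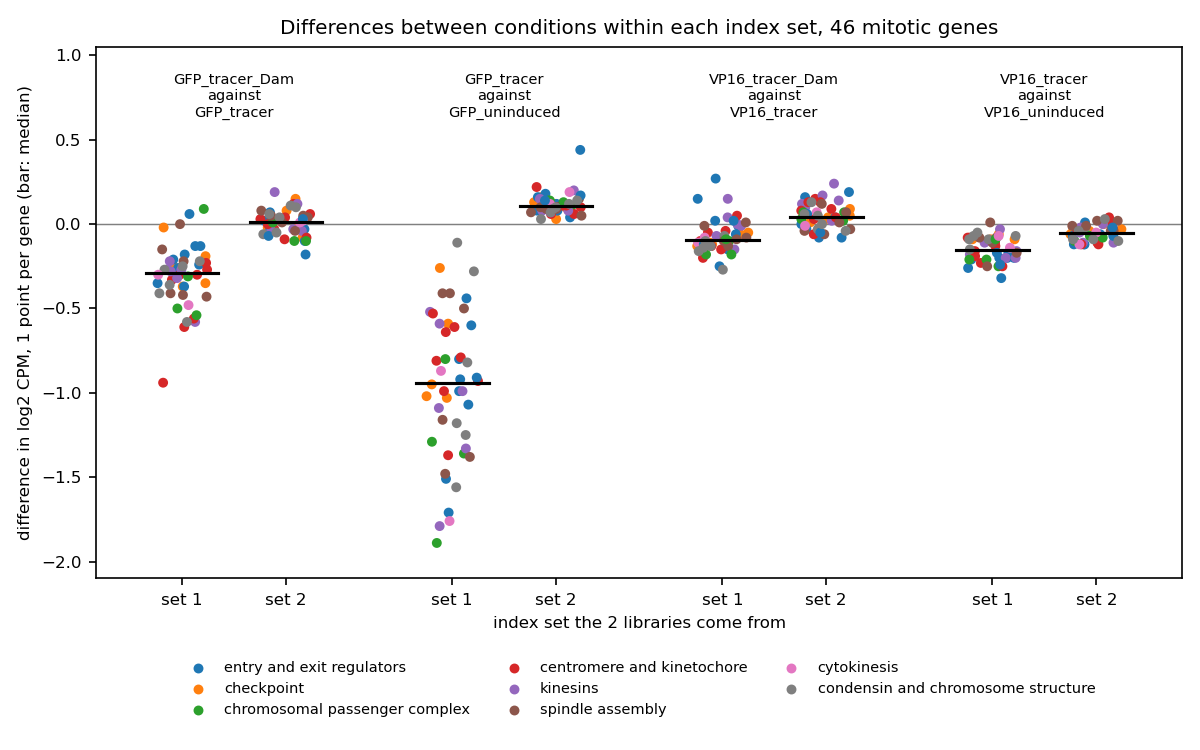
Difference in log2 CPM between 2 conditions of the same clone and index set, 1 point per member coloured by role, with the median as a bar. The points of GFP_tracer against GFP_uninduced spread from -1.89 to -0.11 in index set 1 and lie between 0.03 and 0.44 in index set 2, and in the VP16 clone all medians lie between -0.15 and 0.05.

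Of the regulators of entry and exit, all 9 were lower in the GFP_tracer library of index set 1 than in GFP_uninduced of that set (median -0.92). CCNB1, cyclin B1, the partner that activates CDK1 (chr5:68462837-68474072, GRCh37), stood at 57.5 and 294 CPM in GFP_tracer_Dam, 73.5 and 290 in GFP_tracer, 241 and 282 in GFP_uninduced, 224 and 280 in VP16_tracer_Dam, 233 and 280 in VP16_tracer, and 263 and 291 in VP16_uninduced. GFP_tracer thus held 0.305 of the level of GFP_uninduced in index set 1, and 1.03 times that level in index set 2. The edgeR log2 difference was -0.52 ± 0.73 (SE, adjusted p = 1). CDK1, the kinase that cyclin B activates, stood at 53 and 132 CPM in GFP_tracer_Dam, 60.3 and 126 in GFP_tracer, 114 and 111 in GFP_uninduced, 104 and 130 in VP16_tracer_Dam, 102 and 114 in VP16_tracer, and 122 and 123 in VP16_uninduced. PLK1, a kinase of centrosome maturation and spindle assembly, stood at 85.7 and 216 CPM in GFP_tracer_Dam, 103 and 216 in GFP_tracer, 204 and 204 in GFP_uninduced, 164 and 197 in VP16_tracer_Dam, 182 and 208 in VP16_tracer, and 210 and 218 in VP16_uninduced. In both genes the 2 libraries set apart were the lowest of the 12, and the other 10 lay between 102 and 132 CPM for CDK1 and between 164 and 218 CPM for PLK1. CCNB2, a second B-type cyclin, was at 39.4 and 82.4 CPM in GFP_tracer_Dam, 43.1 and 84.2 in GFP_tracer, 65.5 and 79.4 in GFP_uninduced, 50.8 and 60.8 in VP16_tracer_Dam, 45.6 and 61.9 in VP16_tracer, and 52.5 and 62.9 in VP16_uninduced. PTTG1, securin, which holds separase inactive until anaphase, was at 40.5 and 73.4 CPM in GFP_tracer_Dam, 44.3 and 77.1 in GFP_tracer, 59.9 and 69.9 in GFP_uninduced, 63.2 and 74.6 in VP16_tracer_Dam, 62.4 and 77.1 in VP16_tracer, and 70 and 78 in VP16_uninduced, and near-identical copies in the genome make its count uncertain. It had the smallest difference of its role in index set 1, -0.44, and 0.14 in index set 2. The other 4 were AURKA (-1.51), the phosphatase CDC25C (-1.07), UBE2C, the ubiquitin-conjugating enzyme of the anaphase-promoting complex (-0.91), and CDC20 (-0.80), each a log2 difference in index set 1. CDC25C had the highest value of any member in index set 2, 0.44, at 5.94 and 17.5 CPM in GFP_tracer against 12.6 and 12.9 CPM in GFP_uninduced.

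Checkpoint genes differed among themselves. BUB1, a kinase that recruits the checkpoint to kinetochores, stood at 5.67 and 7.43 in GFP_tracer_Dam, 6.04 and 7.36 in GFP_tracer, 7.07 and 7.26 in GFP_uninduced, 6.97 and 7.38 in VP16_tracer_Dam, 7.10 and 7.36 in VP16_tracer, and 7.19 and 7.40 in VP16_uninduced on the log2 CPM scale. BUB1B, which encodes BUBR1, an inhibitor of the anaphase-promoting complex, was at 45 and 127 CPM in GFP_tracer_Dam, 51.3 and 128 in GFP_tracer, 104 and 125 in GFP_uninduced, 68.1 and 97.7 in VP16_tracer_Dam, 73.9 and 94.8 in VP16_tracer, and 77.2 and 98.5 in VP16_uninduced. Both were at about 0.49 of GFP_uninduced in the GFP_tracer library of index set 1 (0.489 and 0.493). BUB3, the adaptor that brings the other two to kinetochores (chr10:124913793-124924886, GRCh37), stood at 179 and 218 CPM in GFP_tracer_Dam, 182 and 222 in GFP_tracer, 218 and 202 in GFP_uninduced, 215 and 231 in VP16_tracer_Dam, 223 and 228 in VP16_tracer, and 249 and 234 in VP16_uninduced. Its level in the 2 libraries set apart was 0.82 and 0.834 of GFP_uninduced in that set, and its edgeR log2 difference for GFP_tracer was -0.058 (adjusted p = 1). TTK differed by -0.95 and MAD2L1 by -0.59 in index set 1.

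The chromosomal passenger complex, which corrects faulty attachments of chromosomes to the spindle, had the largest median of the 8 roles, -1.33 for GFP_tracer against GFP_uninduced in index set 1. INCENP, the scaffold of the complex (chr11:61891445-61920635, GRCh37), was at 46.2 and 163 CPM in GFP_tracer_Dam, 43.5 and 161 in GFP_tracer, 161 and 146 in GFP_uninduced, 100 and 117 in VP16_tracer_Dam, 107 and 111 in VP16_tracer, and 114 and 118 in VP16_uninduced. AURKB, its kinase, was at 30 and 98.8 CPM in GFP_tracer_Dam, 42.4 and 101 in GFP_tracer, 109 and 94.2 in GFP_uninduced, 91.5 and 100 in VP16_tracer_Dam, 98.1 and 95.4 in VP16_tracer, and 116 and 102 in VP16_uninduced. BIRC5, survivin, which binds the complex to centromeres, was at 79.4 and 195 CPM in GFP_tracer_Dam, 115 and 209 in GFP_tracer, 201 and 190 in GFP_uninduced, 150 and 165 in VP16_tracer_Dam, 169 and 162 in VP16_tracer, and 196 and 171 in VP16_uninduced. INCENP had the largest difference of all 46 members in that pair of libraries, -1.89, against 0.14 in index set 2, and the edgeR log2 difference over both was -0.59 ± 0.62 (SE, adjusted p = 1). The VP16 libraries of INCENP lay below GFP_uninduced in both sets, which is described with the clones. CDCA8, borealin, differed by -1.29 in index set 1 and by 0.13 in index set 2.

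Centromere and kinetochore genes had the smallest median of the 8 roles, -0.80 within index set 1, against 0.11 for the second set, and the roles were not tested against each other. SPC25, a subunit of the NDC80 complex that grips microtubules, had the largest difference of the 8, and stood at 5.58 and 28 CPM in GFP_tracer_Dam, 8.24 and 27.3 in GFP_tracer, 21.4 and 25.3 in GFP_uninduced, 19.2 and 27.1 in VP16_tracer_Dam, 20.9 and 24.7 in VP16_tracer, and 22.5 and 26.9 in VP16_uninduced. NUF2, another subunit of that complex, stood at 27.7 and 67.2 CPM in GFP_tracer_Dam, 32.6 and 67.4 in GFP_tracer, 51 and 62.4 in GFP_uninduced, 51.8 and 71.1 in VP16_tracer_Dam, 50.2 and 65 in VP16_tracer, and 59 and 67.8 in VP16_uninduced. CENPA, the histone H3 variant that marks centromeres, was at 9.97 and 26 CPM in GFP_tracer_Dam, 12.3 and 27.6 in GFP_tracer, 24.5 and 26.5 in GFP_uninduced, 19.4 and 26.5 in VP16_tracer_Dam, 21.5 and 25 in VP16_tracer, and 25.6 and 25.6 in VP16_uninduced. SPC25 had 0.385 of the GFP_uninduced level in the GFP_tracer library of index set 1, and NUF2 had 0.639. CENPF, a large protein of the outer kinetochore (chr1:214776538-214837931, GRCh37), was at 143 and 587 CPM in GFP_tracer_Dam, 177 and 576 in GFP_tracer, 310 and 552 in GFP_uninduced, 298 and 551 in VP16_tracer_Dam, 309 and 540 in VP16_tracer, and 327 and 550 in VP16_uninduced. CENPE, a kinesin that moves chromosomes to the spindle equator, was at 53.2 and 171 CPM in GFP_tracer_Dam, 66.7 and 174 in GFP_tracer, 102 and 160 in GFP_uninduced, 67.6 and 127 in VP16_tracer_Dam, 77.4 and 132 in VP16_tracer, and 86.4 and 128 in VP16_uninduced. In index set 1 CENPI differed by -0.93, ZWINT, a kinetochore scaffold for checkpoint proteins, by -0.79, and NDC80 by -0.53. In CENPE and CENPF every index set 1 library was below every index set 2 library, whatever the condition.

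Among kinesins, KIF20A, which carries the passenger complex to the spindle midzone (chr5:137514408-137523404, GRCh37), reached the lowest ratio of any member. It stood at 22.5 and 146 CPM in GFP_tracer_Dam, 33.7 and 150 in GFP_tracer, 117 and 142 in GFP_uninduced, 117 and 142 in VP16_tracer_Dam, 118 and 140 in VP16_tracer, and 128 and 143 in VP16_uninduced. Relative to GFP_uninduced of index set 1 it was at 0.193 in GFP_tracer_Dam and 0.288 in GFP_tracer, against 1.03 and 1.06 in index set 2. The edgeR log2 difference for GFP_tracer was -0.49 ± 0.80 (SE, adjusted p = 1). KIF14, a kinesin of the midbody, was at 34.2 and 92 CPM in GFP_tracer_Dam, 41.3 and 89.3 in GFP_tracer, 62.1 and 80.5 in GFP_uninduced, 69.7 and 103 in VP16_tracer_Dam, 69.8 and 93.6 in VP16_tracer, and 71.2 and 97.1 in VP16_uninduced. KIF23 (-1.33), KIF11 (-1.09), the microtubule depolymerase KIF2C (-0.99) and KIF18A (-0.52) lay between or beside them in index set 1.

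The spindle assembly genes and the cytokinesis genes spanned nearly the whole range. ASPM, a spindle pole protein (chr1:197053258-197115824, GRCh37), was at 43.8 and 255 CPM in GFP_tracer_Dam, 48.4 and 249 in GFP_tracer, 135 and 241 in GFP_uninduced, 122 and 244 in VP16_tracer_Dam, 133 and 232 in VP16_tracer, and 132 and 234 in VP16_uninduced. NUSAP1, which bundles spindle microtubules, was at 26.6 and 123 CPM in GFP_tracer_Dam, 36 and 117 in GFP_tracer, 94 and 105 in GFP_uninduced, 75.6 and 109 in VP16_tracer_Dam, 80.7 and 101 in VP16_tracer, and 85 and 99 in VP16_uninduced. For both, GFP_tracer of index set 1 held under 0.39 of the GFP_uninduced level (0.358 and 0.383). TPX2, an activator of Aurora A that seeds microtubules near chromosomes, was at 286 and 613 CPM in GFP_tracer_Dam, 380 and 607 in GFP_tracer, 504 and 570 in GFP_uninduced, 474 and 604 in VP16_tracer_Dam, 502 and 619 in VP16_tracer, and 542 and 637 in VP16_uninduced. HMMR, a spindle protein first named as a hyaluronan receptor, was at 56.9 and 102 CPM in GFP_tracer_Dam, 57 and 98.7 in GFP_tracer, 75.9 and 93.9 in GFP_uninduced, 65.5 and 96.4 in VP16_tracer_Dam, 66.1 and 95.7 in VP16_tracer, and 78.4 and 98.1 in VP16_uninduced. These members had smaller differences, both -0.41 in index set 1. DLGAP5, which stabilises kinetochore fibres, differed by -1.16, and PRC1 by -0.50. ANLN, anillin, a scaffold of the contractile ring, was at 61.2 and 319 CPM in GFP_tracer_Dam, 85.4 and 314 in GFP_tracer, 290 and 275 in GFP_uninduced, 264 and 353 in VP16_tracer_Dam, 286 and 336 in VP16_tracer, and 314 and 366 in VP16_uninduced. ECT2, the exchange factor that activates RhoA at the cell equator, was at 6.52 and 7.97 in GFP_tracer_Dam, 6.82 and 7.97 in GFP_tracer, 7.69 and 7.85 in GFP_uninduced, 7.36 and 7.69 in VP16_tracer_Dam, 7.43 and 7.70 in VP16_tracer, and 7.5 and 7.75 in VP16_uninduced on the log2 CPM scale. ANLN differed by -1.76 and ECT2 by -0.87 in index set 1, and by 0.19 and 0.12 in index set 2.

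The genes of condensin and chromosome structure split. SMC2, a core ATPase of both condensins (chr9:106856541-106903698, GRCh37), was at 106 and 204 CPM in GFP_tracer_Dam, 123 and 190 in GFP_tracer, 133 and 186 in GFP_uninduced, 120 and 192 in VP16_tracer_Dam, 134 and 192 in VP16_tracer, and 139 and 197 in VP16_uninduced. SMC4, its partner, was at 274 and 610 CPM in GFP_tracer_Dam, 326 and 584 in GFP_tracer, 396 and 531 in GFP_uninduced, 310 and 492 in VP16_tracer_Dam, 332 and 472 in VP16_tracer, and 347 and 503 in VP16_uninduced. Their GFP_tracer levels in index set 1 were 0.924 and 0.822 of GFP_uninduced. NCAPD2 and NCAPG, which belong to condensin I alone, had lower ratios, 0.421 and 0.568. NCAPD2 was at 121 and 447 CPM in GFP_tracer_Dam, 156 and 464 in GFP_tracer, 370 and 436 in GFP_uninduced, 328 and 427 in VP16_tracer_Dam, 361 and 439 in VP16_tracer, and 385 and 429 in VP16_uninduced. NCAPG was at 51 and 169 CPM in GFP_tracer_Dam, 76.2 and 165 in GFP_tracer, 134 and 152 in GFP_uninduced, 94 and 136 in VP16_tracer_Dam, 103 and 131 in VP16_tracer, and 114 and 141 in VP16_uninduced. TOP2A, the topoisomerase that untangles sister DNA, and MKI67, the Ki-67 protein that coats mitotic chromosomes, had ratios of 0.441 and 0.339. TOP2A was at 194 and 827 CPM in GFP_tracer_Dam, 233 and 765 in GFP_tracer, 529 and 730 in GFP_uninduced, 518 and 828 in VP16_tracer_Dam, 542 and 758 in VP16_tracer, and 577 and 772 in VP16_uninduced. MKI67 was at 151 and 901 CPM in GFP_tracer_Dam, 201 and 938 in GFP_tracer, 591 and 872 in GFP_uninduced, 482 and 848 in VP16_tracer_Dam, 579 and 865 in VP16_tracer, and 609 and 922 in VP16_uninduced. In 5 of the 6 genes every index set 1 library was below every index set 2 library; NCAPG was the exception, with 134 CPM in GFP_uninduced of index set 1 and 131 CPM in VP16_tracer of index set 2.

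**Figure D3:**
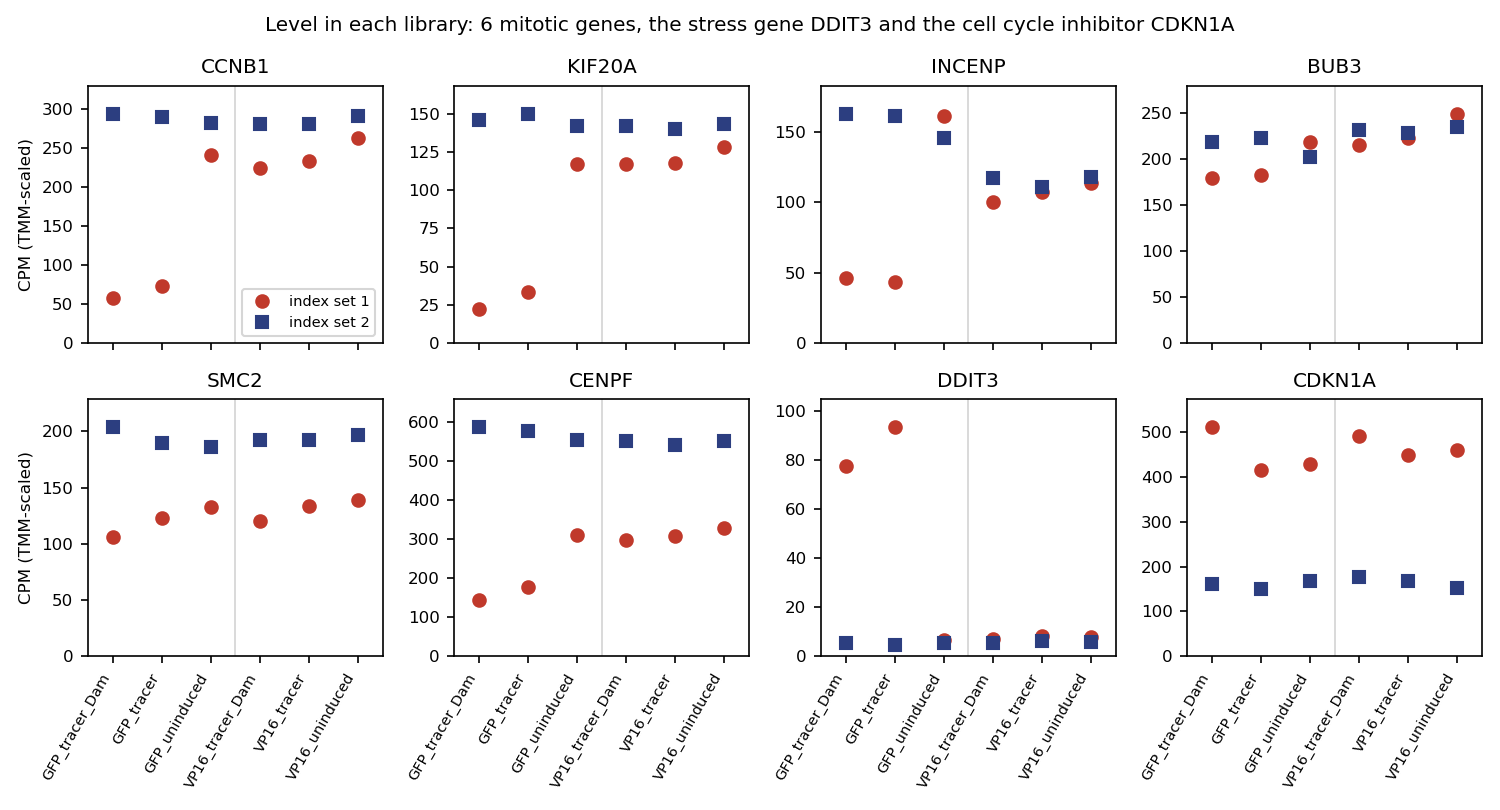
CPM in each library (circles, index set 1; squares, index set 2) of 6 members, of DDIT3 and of CDKN1A. CCNB1, KIF20A and INCENP are low in the GFP_tracer_Dam and GFP_tracer libraries of index set 1, the libraries in which DDIT3 reaches 77.4 and 93.6 CPM, BUB3 is little lower there, and SMC2 and CENPF are lower in index set 1 throughout, where CDKN1A is at 415 to 511 CPM against 150 to 176 CPM in index set 2.

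Activators of mitotic genes were also low in the 2 libraries set apart, as were E2F1 and CCNE2. FOXM1, a transcription factor of mitotic genes, stood at 68.6 and 191 CPM in GFP_tracer_Dam, 94.5 and 190 CPM in GFP_tracer, and 166 and 180 CPM in GFP_uninduced. MYBL2, the B-MYB factor, stood at 77.9 and 157 CPM in GFP_tracer_Dam, 114 and 167 CPM in GFP_tracer, and 152 and 158 CPM in GFP_uninduced. In VP16_tracer_Dam MYBL2 stood at 124 and 172 CPM. E2F1, a transcription factor of the start of DNA replication, was at 23.7 and 70.6 CPM in GFP_tracer_Dam, 45.2 and 85.5 in GFP_tracer, 76.7 and 78.6 in GFP_uninduced, 45.9 and 62 in VP16_tracer_Dam, 69 and 73.2 in VP16_tracer, and 74.1 and 79.7 in VP16_uninduced. Its level in VP16_tracer_Dam of index set 1 was thus close to that in GFP_tracer of that set. CCNE2, cyclin E2, was at 1.63 and 2.55 CPM in the 2 libraries set apart against 14.9 CPM in GFP_uninduced of the same set and 11 to 17.4 CPM over all other 10 libraries. The part of the stress genes and of FOXM1, MYBL2, E2F1 and CCNE2 in the levels of the members was not tested.

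Shield1 asks whether stabilised Dam-LaminB1 moves the genes beyond the tracer. In the GFP clone 44 of 46 members were lower in GFP_tracer_Dam than in GFP_tracer in index set 1 (median -0.29, from -0.94 for CENPI, a subunit of the inner kinetochore, to 0.09 for INCENP). In index set 2, 25 were higher and 21 lower (median 0.01, from -0.18 to 0.19). Over both sets edgeR gave a median log2 difference of -0.074 and called 0 members, against 0% of all genes, with 0 members and 80 genes at an unadjusted p under 0.05 and 0 genes called by DESeq2 or limma-voom. On the index set 1 side this comparison consists of the libraries set apart, and CENPI stood at 7 and 33.3 CPM in GFP_tracer_Dam against 13.5 and 30.6 CPM in GFP_tracer. Without them each group keeps 1 library and the median was 0.012.

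In the VP16 clone the differences were small. In VP16_tracer against VP16_uninduced 45 of 46 members were lower in index set 1 (median -0.15, from -0.32 to 0.01) and 39 of 46 in index set 2 (median -0.05, from -0.12 to 0.04). EdgeR gave a median of -0.096 and called 0 members, against 0% of all genes; 0 members and 72 genes had an unadjusted p under 0.05, and DESeq2 and limma-voom called 0 genes. A blocked fit restricted to the 6 VP16 libraries, added after these values were seen, called 139 of 16139 genes (0.861%) and again 0 members; 17 of the 46 had an unadjusted p under 0.05, as did 1921 of the 16139 genes. The smallest adjusted p was that of AURKA, the Aurora A kinase of spindle poles, at 0.11 (log2 difference -0.15 ± 0.043, SE). AURKA stood at 181 and 193 CPM in VP16_tracer and at 207 and 211 CPM in VP16_uninduced, lower in both sets.

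Shield1 in the VP16 clone gave a median of -0.10 in index set 1, where 38 members were lower and 8 higher in VP16_tracer_Dam, and of 0.05 in index set 2, where 33 were higher and 13 lower. The median by edgeR was -0.009, with 0 members called against 0% of all genes, 0 members and 53 genes at an unadjusted p under 0.05, and 0 genes called by DESeq2 or limma-voom. The fit of the 6 VP16 libraries with the block called 13 genes (0.0806%) and 0 members, with 6 of the 46 members and 1548 of the 16139 genes at an unadjusted p under 0.05. Its smallest adjusted p, 0.25, was for CDC20, the activator of the anaphase-promoting complex, which stood at 196 and 235 CPM in VP16_tracer_Dam and 233 and 248 CPM in VP16_tracer.

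The clones were also compared in how they responded. For the tracer, the VP16 response minus the GFP response had a median of 0.19 over the members (0 called, against 0% of all genes; 0 members and 94 genes at an unadjusted p under 0.05). The sign rested on the 2 libraries set apart. Without them the median was -0.28, and -0.15 with the block, with all 46 members negative, 11 of them at an unadjusted p under 0.05 in the blocked fit, where 668 of 17558 genes were, and 0 called. For Shield1 the median was 0.059, with 0 members called against 0% of all genes, 0 members and 50 genes at an unadjusted p under 0.05, and it was -0.039 without the 2 libraries. DESeq2 and limma-voom called 0 genes in either comparison.

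Between the uninduced clones, members passed only with the block and without the 2 libraries set apart, and there in both directions. Over all 12 libraries edgeR called 0 members, against 0.278% of all genes, with 0 members and 1287 genes at an unadjusted p under 0.05; DESeq2 and limma-voom called 297 and 33 genes and 0 members. The block alone also called 0 members, against 1.89% of genes. The block without the 2 libraries set apart leaves 3 residual degrees of freedom. With the index set as a block and without the 2 libraries set apart, 13 members passed, 6 higher in VP16_uninduced (9.02% of genes were called higher) and 7 lower (12% were called lower). Leaving out 1 uninduced library more moved the count to between 3, without VP16_uninduced of index set 2, and 15, without GFP_uninduced of index set 1, and it was 6 without VP16_uninduced of index set 1. INCENP, BUB1B and MAD2L1 passed in all 4 of those fits.

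MAD2L1, the MAD2 protein that holds back CDC20 while kinetochores are unattached (chr4:120980577-120988229, GRCh37), is named after its values were seen. It stood at 50.7 and 98.5 CPM in GFP_tracer_Dam, 64.8 and 104 in GFP_tracer, 97.9 and 95.6 in GFP_uninduced, 62.6 and 74.6 in VP16_tracer_Dam, 67.5 and 70.1 in VP16_tracer, and 72 and 71.7 in VP16_uninduced. Both VP16_uninduced libraries were below both GFP_uninduced libraries, and by edgeR in the fit of 10 libraries with the block the log2 difference was -0.44 ± 0.066 (SE, adjusted p = 0.00033). BUB1B was lower by the same fit, at -0.40 ± 0.061 (SE, adjusted p = 0.00038). INCENP was lower too, at -0.43 ± 0.069 (SE, adjusted p = 9e-04). CCNB2, CENPE, PRC1, which bundles midzone microtubules, and ECT2 were the other members lower in VP16_uninduced, by log2 differences of -0.34, -0.29, -0.23 and -0.16. AURKA, KIF14, KIF11, the motor that separates spindle poles, CDC20, BUB3 and PTTG1 were higher, by 0.23, 0.22, 0.20, 0.20, 0.19 and 0.18. Within the checkpoint, by this fit alone, MAD2L1 and BUB1B were lower while BUB3 was higher. BUB3 did not pass in every fit that left out 1 uninduced library more. BUB1 (0.12) and TTK (0.044), the MPS1 kinase that starts the checkpoint, did not pass.

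**Figure D4:**
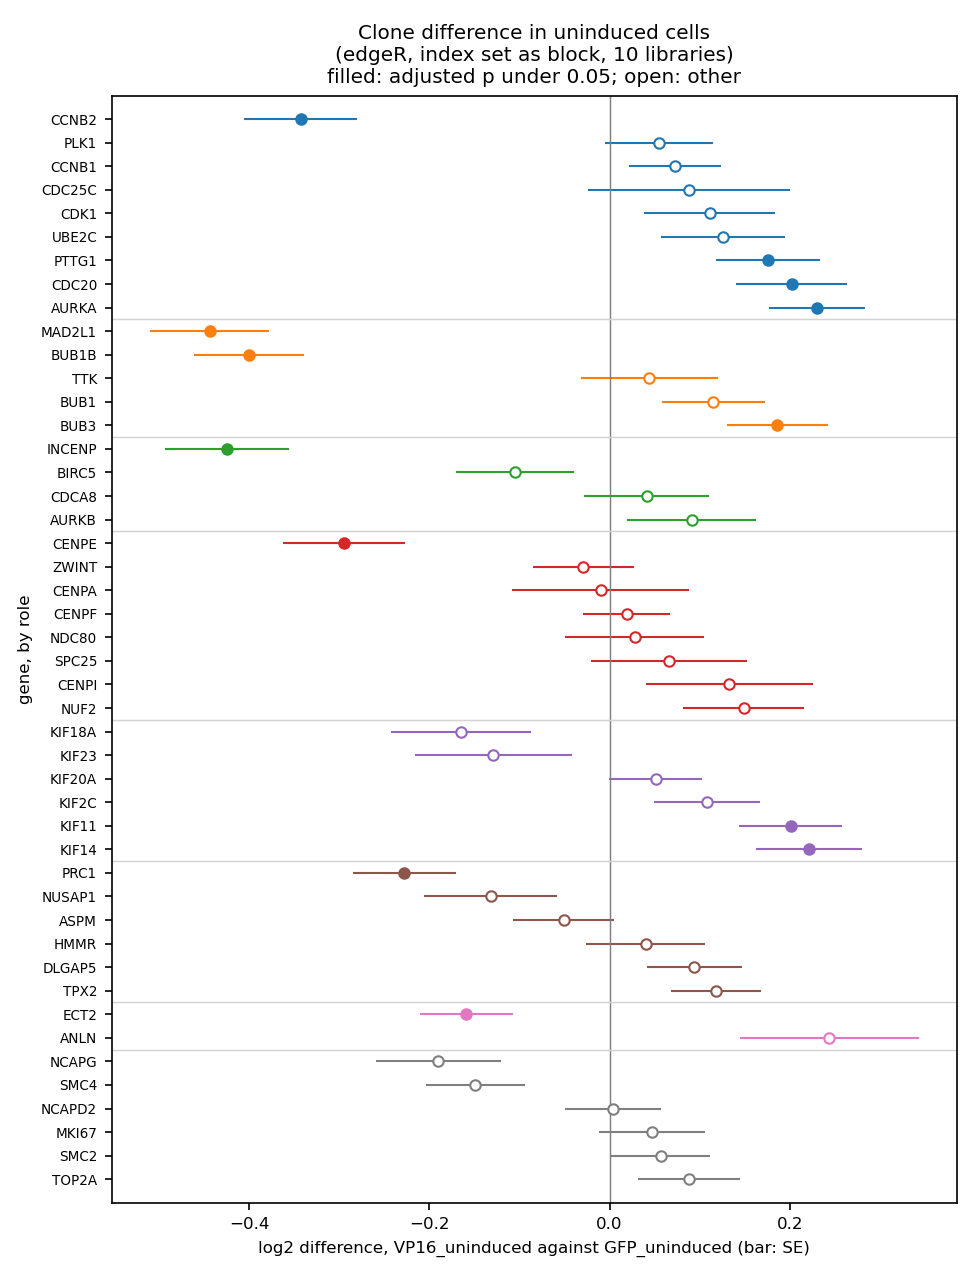
Log2 difference of VP16_uninduced against GFP_uninduced (points, bars 1 SE) for the 46 members by role, from edgeR with the index set as a block over 10 libraries. Filled points passed an adjusted p under 0.05; MAD2L1, INCENP and BUB1B lie lowest, from -0.44 to -0.40, and most of the regulators of entry and exit lie above 0.

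Over all 3 conditions the sign of the clone difference turned on the 2 libraries set apart. With them the median over members was 0.20, with 0 members called against 7.64% of genes, 0 members and 4098 genes at an unadjusted p under 0.05, and 0 members called by DESeq2 or limma-voom. The block alone left 0 members called, against 20.9% of genes, with 2 of the 46 members and 6162 of the 17262 genes at an unadjusted p under 0.05. Without the 2 libraries, which leaves 1 GFP library beside 3 VP16 libraries in index set 1, the median was -0.16, and 5 members were lower in the VP16 clone (6.84% of genes were called lower): MAD2L1 and INCENP (both adjusted p = 0.0054), CCNB2, KIF23, the motor of centralspindlin, and BIRC5. With the block as well, the median was -0.078, with 35 members negative and 11 positive, and 14 members were lower (17.5% of genes) and KIF14 was higher (15.9% of genes). Of these 15, 12 passed in each of 8 fits that left out 1 library more, and the count ran from 12, without VP16_uninduced of index set 2, to 23, without GFP_uninduced of index set 2. MAD2L1 (-0.51 ± 0.046, SE, edgeR adjusted p = 1.3e-06), INCENP (-0.52 ± 0.048, adjusted p = 3.4e-06) and BUB1B (-0.43 ± 0.042, adjusted p = 2.7e-06) led again. The SMC4, NCAPG and KIF18A genes, the last a motor that damps chromosome movement, were among the 14 though not called between the uninduced clones.

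The index sets differed in the same direction for nearly all members. In the test with group as a covariate, 18 members were lower in index set 1 and 0 higher, against 12.6% of all genes lower, with a median log2 difference of -0.61 and 38 of the 46 members and 7231 of the 17262 genes at an unadjusted p under 0.05. Fewer members were called without the GFP_tracer library of either index set. Much of the size came from the 2 libraries set apart. Over the 4 groups other than GFP_tracer_Dam and GFP_tracer, the median was -0.24 and 34 members were lower, against 20.2% of genes lower; leaving out 1 library more gave 28 to 41, and 26 members passed in all 8 of those fits. In direction, 31 members were lower in index set 1 in 6 of 6 groups and 41 in at least 5. The same was not counted over all genes. Differences between index sets correlated across groups over all genes (0.41 to 0.86), so these counts do not set the members apart.

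Single members of several roles had the smallest p-values. SMC2 (-0.63 ± 0.069, SE, edgeR adjusted p = 0.00095) and SMC4 (-0.69 ± 0.095, adjusted p = 0.0022) came first over 12 libraries, and HMMR (-0.56 ± 0.084, adjusted p = 0.0030), CENPE (-0.99 ± 0.15, adjusted p = 0.0031) and CENPF (-1.17 ± 0.19, adjusted p = 0.0038) followed. ASPM had the largest, -1.38 ± 0.28 (adjusted p = 0.0095). KIF14, CCNB2, NUF2, TOP2A, BUB1B, TPX2, MKI67 and PTTG1 had an adjusted p of 0.010 to 0.024. Without either library of GFP_tracer, NUF2, TOP2A, BUB1B and TPX2 had an adjusted p of 0.056 to 0.065. In the 4 groups without the libraries set apart, ASPM (-0.86 ± 0.040), CENPF (-0.82 ± 0.035), CENPE (-0.72 ± 0.050), MKI67 (-0.64 ± 0.043), SMC2 (-0.54 ± 0.039) and SMC4 (-0.53 ± 0.040) were the 6 lowest. The other 6 centromere and kinetochore genes lay nearer the median of all members there, from -0.33 for NUF2 to -0.13 for ZWINT.

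Not all members followed, among them the 4 genes of the passenger complex. Over the same 4 groups CDCA8 was at 0.11, AURKB at 0.078, BIRC5 at 0.052 and INCENP at -0.038 (edgeR adjusted p of 0.11 to 0.58). BUB3 was at 0.016 (adjusted p = 0.79). AURKA (-0.053), MAD2L1 (-0.063), CDC20 (-0.078), KIF23 (-0.10), CDK1 (-0.11), KIF18A (-0.14) and ANLN (-0.20) did not pass either (edgeR adjusted p of 0.06 to 0.32). In VP16_tracer_Dam all 4 passenger genes were lower in index set 1 (median -0.14). CDCA8 stood at 81.6 and 87.3 CPM in VP16_tracer_Dam, 92.5 and 86 CPM in VP16_tracer, 107 and 90.1 CPM in VP16_uninduced, and 100 and 89.1 CPM in GFP_uninduced. The index sets overlapped in that gene, in AURKB, BIRC5 and BUB3, and in further members, among them INCENP, PLK1, CDC20, BUB1B and CCNB2. CDKN1A, which encodes the cell cycle inhibitor p21, was at 415 to 511 CPM in all 6 libraries of index set 1 and at 150 to 176 CPM in all 6 of index set 2. CDKN1B, a second cell cycle inhibitor, did not follow CDKN1A. It was at 11.1 to 21.5 CPM in index set 1 and at 19.7 to 22.3 CPM in index set 2. Its lowest values, 13.4 and 11.1 CPM, were in the GFP_tracer_Dam and GFP_tracer libraries of index set 1. The part of either inhibitor in the levels of the members was not tested.

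The 4 members with the longest transcripts were among the lowest in index set 1. The longest annotated transcripts were those of MKI67 (12678 bases), ASPM (10887), CENPF (10307) and CENPE (8612), in GENCODE 29, and these were 4 of the 6 lowest members. BUB3, with 7828 bases, did not follow. Split by length, the 23 longest members had a median of -0.26 between index sets and the 23 shortest -0.22. Over all genes of that fit with a length, cut into 4 classes of nearly equal size, the medians from the shortest class to the longest were 0.07, 0.05, 0 and -0.11. For GFP_tracer against GFP_uninduced in index set 1 the medians of the members were -0.95 for the longest and -0.93 for the shortest, and -0.03 to 0.03 over the 4 classes of all genes. How RNA quality or library preparation bore on either was not tested.

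**Figure D5:**
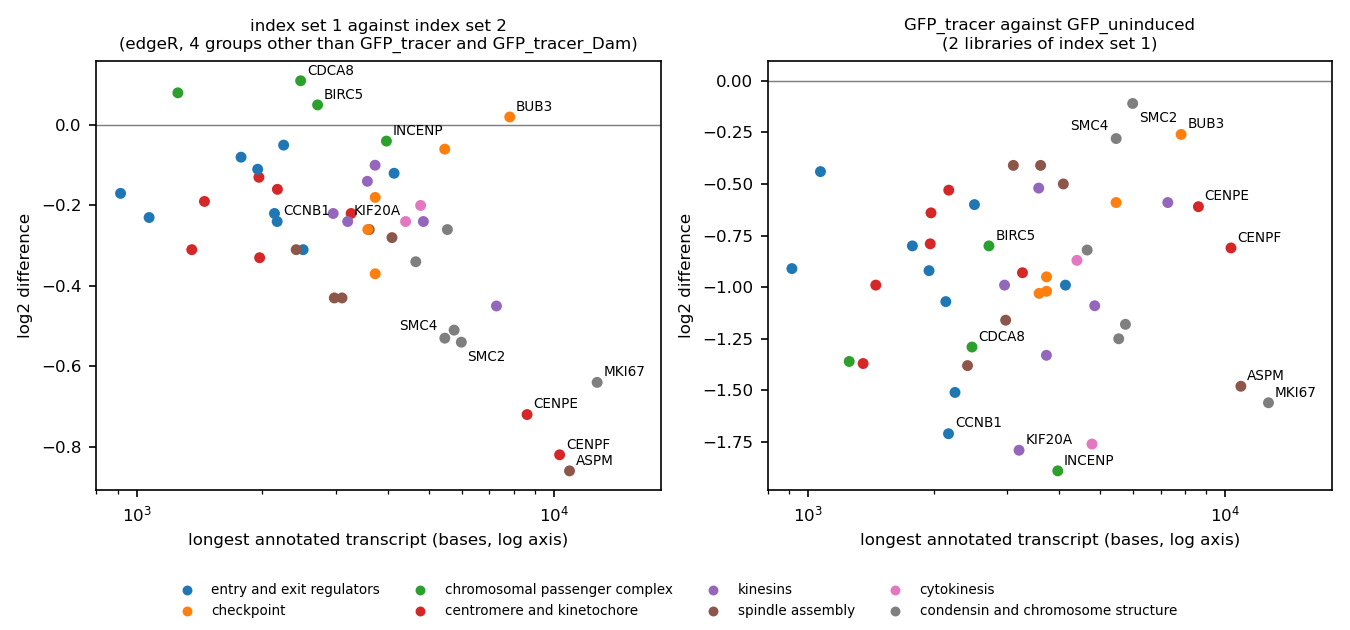
Log2 difference of each member against the length of its longest annotated transcript in bases (log axis): left, index set 1 against index set 2 in 4 groups; right, GFP_tracer against GFP_uninduced in the libraries of index set 1. On the left ASPM, CENPF, CENPE and MKI67 (-0.86 to -0.64) lie at the long end, and on the right INCENP, KIF20A, ANLN and CCNB1 (-1.89 to -1.71) lie in the middle of the length range.

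A wider list of 76 other mitotic genes, drawn up with earlier results of these data known, behaved in the same comparisons as follows. For GFP_tracer against GFP_uninduced 74 of 76 were lower in index set 1 (median -0.62) and 68 higher in index set 2 (median 0.11). In each of the 8 comparisons of conditions and clones over 12 libraries the main edgeR fit called 0 of the 76. With the block over 12 libraries, edgeR called 1 lower in the VP16 clone over 3 conditions, against 20.9% of all genes called. It was CKAP5 (-0.32 ± 0.042, SE, edgeR adjusted p = 0.002). In the fit of 10 libraries with the block, 8 of the 76 were higher in VP16_uninduced than in GFP_uninduced (9.02% of all genes were) and 9 were lower (12% were). CEP55, a midbody protein of the last step of cytokinesis, was among the higher (0.28 ± 0.054, SE, edgeR adjusted p = 0.0019). Among the lower were CCNA2, cyclin A2 (-0.34 ± 0.059, adjusted p = 0.0011), and CKAP5, a microtubule polymerase (-0.28 ± 0.048, adjusted p = 0.00091). Between index sets over 12 libraries 26 of the 76 were lower in index set 1 (12.6% of all genes were) and 1 was higher (2696 of the 17262 genes were), with CKAP5 (-0.44 ± 0.042, adjusted p = 0.00052) and KNTC1, a kinetochore protein of the checkpoint (-0.87 ± 0.15, adjusted p = 0.0049), among the lower.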

How the data were processed

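Total RNA of 12 HT1080 libraries was sequenced after Trizol extraction and TruSeq library preparation, per the labels' protocols. The authors' deposited table holds raw counts, whole numbers of reads for each Ensembl gene. Per the submitters' processing notes, HTSeq did the counting after alignment to GRCh37 by TopHat 1.4.0, which ran on Bowtie 0.12.7. The strand setting of the counting is not given in the sources used here, so overlapping antisense reads cannot be told apart.

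Genes were filtered with filterByExpr, scaled by TMM, and tested with edgeR 4.0.16 in R 4.3.3 (glmQLFit with robust dispersions, 1 coefficient per group, 6 residual degrees of freedom over 12 libraries), with p-values adjusted by Benjamini-Hochberg over all genes tested at a threshold of 0.05. The SE of a log2 difference was its size divided by the square root of F. A prior count of 2 went into log2 CPM. Compared were tracer induction and Shield1 per clone, how the clones differed in these responses, the clones when uninduced and over 3 conditions, and the index sets. The index sets, read from the titles, paired the libraries: deviations from group means correlated at 0.41 to 0.86 over the 15 pairs of groups, although the labels give no replicate numbers. The main tests of conditions and clones left the index set out, so its spread entered their SE. For VP16_tracer against VP16_uninduced the median SE over members was 0.496 in the main fit. It was 0.342 with the block and 0.052 in the blocked fit of the 6 VP16 libraries. A count of 0 called in the main fit therefore says little about small differences.

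Members and lists were chosen with earlier results of these data known. Values in every library are given for up to 12 members called in any comparison, for the member with the largest and the smallest difference between GFP_tracer and GFP_uninduced in each role, and for a few well-known members. The index set as a block, DESeq2 1.42.0, limma-voom (limma 3.58.1), RLE factors, other filters on counts, fits of the compared groups only, and left-out libraries served as alternatives. The scripts were tested on simulated counts. Replicate libraries were not duplicates (chi-square per degree of freedom 19.6 to 126).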

Additional observations from a re-analysis of the deposited data

Results flagged for a closer look

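NUF2, a subunit of the NDC80 complex, is listed because its 4 differences with Shield1 within index sets had opposite signs in the 2 clones. VP16_tracer_Dam minus VP16_tracer was 0.05 and 0.13 in log2 CPM, and GFP_tracer_Dam minus GFP_tracer was -0.23 in index set 1 and just below 0 in index set 2. The mean difference between the clones was 0.21. The edgeR test of the difference between clones over 12 libraries did not pass for NUF2 (0.17 ± 0.62, SE, adjusted p = 1), and the GFP value of index set 1 comes from the 2 libraries set apart.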

How the results depend on the processing

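The count of 0 members called in the 8 comparisons of conditions and clones was the same under RLE factors, DESeq2, limma-voom, no count filter, a mean of at least 1 CPM, only the groups compared and the replicate block. It changed between the uninduced clones under the replicate block without the 2 GFP libraries set apart (13 called), and over 3 conditions without those libraries (5, or 15 with the block) and without GFP_tracer_Dam replicate 2 (1). In the fits of 10 libraries with the block, leaving out 1 library more gave 3 to 15 members between the uninduced clones (6 without VP16_uninduced replicate 1) and 12 to 23 over 3 conditions.

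Between index sets, 18 members were called with all libraries, 33 by DESeq2, 10 with no count filter, 35 without the 2 libraries set apart, 34 in the other 4 groups alone, and 8 to 17 with 1 library left out. Of all genes, 2173 of 17262 were called lower in index set 1 with all libraries and 2380 of 17262 by DESeq2. With no count filter 1817 of 36502 were, and in the other 4 groups alone 3346 of 16553. Fits that keep 1 library in a group are given without such a share. Leaving out 1 library moved the median over members to between -1.10 and 0.64 for GFP_tracer_Dam against GFP_tracer, -0.24 and 0.044 for VP16_tracer against VP16_uninduced, -0.24 and 0.18 for VP16_tracer_Dam against VP16_tracer, -0.29 and 0.95 for the difference in tracer response, -0.66 and 1.07 for that in Dam-LaminB1 response, and -0.068 and 0.15 between the uninduced clones. It leaves the index sets unbalanced in these fits. For GFP_tracer against GFP_uninduced the sign of KIF20A, CCNB1, INCENP and BUB3 turned without the 2 libraries set apart (0.22, 0.16, 0.076 and 0.085), with the block as well (0.10, 0.038, 0.051 and 0.089) and without GFP_tracer replicate 1 (0.22, 0.15, 0.071 and 0.081); without GFP_tracer replicate 2 the values were -1.97, -1.86, -1.85 and -0.24.

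With 2 libraries a group, and 1 where a library was left out, the lone library is assumed to vary like the others. Depth limits the members less than the spread between libraries does. The cause of the difference between index sets was not tested.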
